A study of Mus musculus with 46 samples.

Results

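The forkhead genes encode transcription factors that share the forkhead DNA-binding domain, and their marking by H3.3, H3K4me3 and H3K36me3 was followed while fibroblasts were converted to other cell types. Members were the protein-coding genes of the mouse annotation GENCODE vM1 (build mm9) whose symbol is Fox, a letter and a number. This rule gave 42 of 22367 protein-coding genes, and it used no measured value. Foxl1 is annotated as a pseudogene there and Foxf1a carries a further letter, so neither was a member.

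ChIP-Seq peak lists were available for 30 libraries, each the only library of its group, so nothing below has a replicate error. D0 were mouse embryonic fibroblasts (MEFs) before conversion, and per the study's methods they carried an IRES-EGFP cassette behind the endogenous Oct4 gene. Retroviral pMXs vectors with Oct4, Sox2, Klf4 and c-Myc were then delivered to all the reprogramming groups from D3 on, in feeder-free medium. D3 cells were unsorted, D6T- and D9T- cells were sorted on days 6 and 9 as negative for the fibroblast surface protein Thy-1, and D12S+ and D16S+ cells on days 12 and 16 as positive for the pluripotency-associated antigen SSEA-1. Together with fully reprogrammed iPSCs these formed the successful route, for which H3.3, H3K4me3 and H3K36me3 were all profiled (7 stages). H3.3 alone was profiled in the opposite sort fractions (D6T+, D9T+, D12S- and D16S-), in the embryonic stem cell line ES-D3 (ESD3), and in a transdifferentiation series in which Scl, Lmo2, Runx1 and Bmi1 (Lmo2 of human, Scl of mouse sequence) were delivered by retrovirus to fibroblasts sorted free of hematopoietic surface markers: MEF before induction, D4 on day 4, and final cells with (cKit+) and without (cKit-) the surface receptor cKit. The induced cells of that series were grown on inactivated OP9 stroma, a mouse cell line, and whether OP9 chromatin entered these libraries was not measured.

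H3.3 is the replication-independent variant of histone H3, and it is laid down at active genes and regulatory elements as well as in heterochromatin. H3K4me3 marks the starts of active genes and of many silent developmental genes with CG-rich promoters, while H3K36me3 is laid down along gene bodies in the wake of elongating RNA polymerase. Forkhead factors range from broadly expressed regulators of metabolism and the cell cycle (FoxO, FoxK, Foxm1) to master regulators of lineages, such as FoxA in endoderm and FoxC in mesenchyme.

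A gene was called marked where at least 1 peak overlapped the window from 1 kb before its start to 1 kb after its end. The score of a peak is its tags per 10 M tags of the library, scores were summed over the peaks of a gene, and a peak that ran beyond the window was counted whole. The windows of 15 members overlapped that of another protein-coding gene, which is pointed out where a result turns on it. In sorted or mixed cells, fewer cells carrying a mark and less of the mark per cell cannot be told apart. Libraries held 13.2 to 91.8 M tags, and between 1.07% (D12S+ H3K36me3) and 42.4% (D9T- H3K36me3) of them lay in peaks. H3K36me3 in D16S+ (1.99%) and iPSCs (2.88%), H3K4me3 in D16S+ (3.71%) and H3.3 in cKit+ (1.65%) and cKit- (2.31%) were also weak libraries, so counts are read beside the share of all genes called by the same rule in the same library. Of the 12 reprogramming libraries of H3.3, D16S+ (4.88%) and D12S+ (6.93%) were the weakest by this share. Of 12 fibroblast marker genes, 12 had H3.3 in D0 and in MEF, 4 in iPSCs and 2 in ESD3, whereas of 12 pluripotency genes 4 had it in D0 and 12 in iPSCs and ESD3. In cKit+ cells 5 of 11 hematopoietic markers had H3.3, and 7 of 12 fibroblast markers still did.

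H3K4me3 was present over 36 to 38 of the 42 members at every stage but D16S+, whereas H3K36me3 was found at 13 members in any library (31.0%, against 58.2% of all genes). In D0, 38 of 42 members carried H3K4me3, against 70.2% of all genes, and only 11 carried H3K36me3, against 49.7%. H3.3 lay over 23 members, against 61.9%. In iPSCs the counts were 38 for H3K4me3 (69.0% of all genes), 10 for H3K36me3 (34.7%) and 23 for H3.3 (61.2%), so the number of marked members was nearly the same at both ends of the route. With a stricter fold over input of 8, H3K4me3 was on 12 members in iPSCs. The share of all genes at that fold was not computed, so the 12 cannot be read as a result about forkhead genes. In that library 12.7% of tags lay in peaks, against 30.4% in D0. The intermediates gave 36 or 37 members with H3K4me3 from D3 to D12S+, and 28 in the weak D16S+ library (51.6%). By stage the shares of all genes were 68.2% in D3, 69.7% in D6T-, 68.6% in D9T- and 66.0% in D12S+. Members with H3K4me3 in all 7 libraries numbered 27 (49.2% of all genes), and 35 had it in the 6 libraries other than D16S+ (62.4%).

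H3K36me3 and H3.3 were on a smaller share of members than of all genes at every stage of the route. H3K36me3 was on 11 members in D3 (44.6% of all genes), 9 at D6T- (38.8%), 13 at D9T- (50.3%), 6 at D12S+ (23.5%) and 7 at D16S+ (25.6%). H3.3 was on 18 in D3 (57.3%) and 21 in ESD3 (52.1%), and 9 members had it in all 12 reprogramming libraries (27.9%). Between D0 and iPSCs, 7 members had H3.3 only in iPSCs (Foxb1, Foxd3, Foxh1, Foxi3, Foxj1, Foxo4 and Foxr1; 8.84% of all genes) and 7 only in D0 (among them Foxc1, Foxc2, Foxf2, Foxn4, Foxp2 and Foxs1; 9.53%). H3K4me3 was found only in iPSCs on Foxr1 (3.00% of all genes) and only in D0 on Foxs1 (4.20%). H3K36me3 was found only in iPSCs on Foxo1 (3.08%) and only in D0 on Foxp1 and Foxp3 (18.0%).

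The combination of the marks differed from that of other genes. In D0, 15 members (35.7%) had H3K4me3 with neither H3.3 nor H3K36me3, a combination found at 8.98% of all genes, and 13 (31.0%) had H3.3 with H3K4me3, found at 13.8%. All 3 marks together were on 10 members (23.8%) against 44.3% of all genes, and no mark was on 3 members (7.14%) against 25.0%. The same counts of 15, 13 and 10 were found in iPSCs, where H3K4me3 alone covered 10.6% of all genes, H3.3 with H3K4me3 24.7% and all 3 marks 32.3%, while 4 members and 26.3% of all genes had none. Between those ends, H3K4me3 alone was on 19 members in D3 (11.1% of all genes), 16 at D6T- (10.7%), 15 at D9T- (9.06%), 21 at D12S+ (16.2%) and 18 at D16S+ (12.4%).

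**Figure D1:**
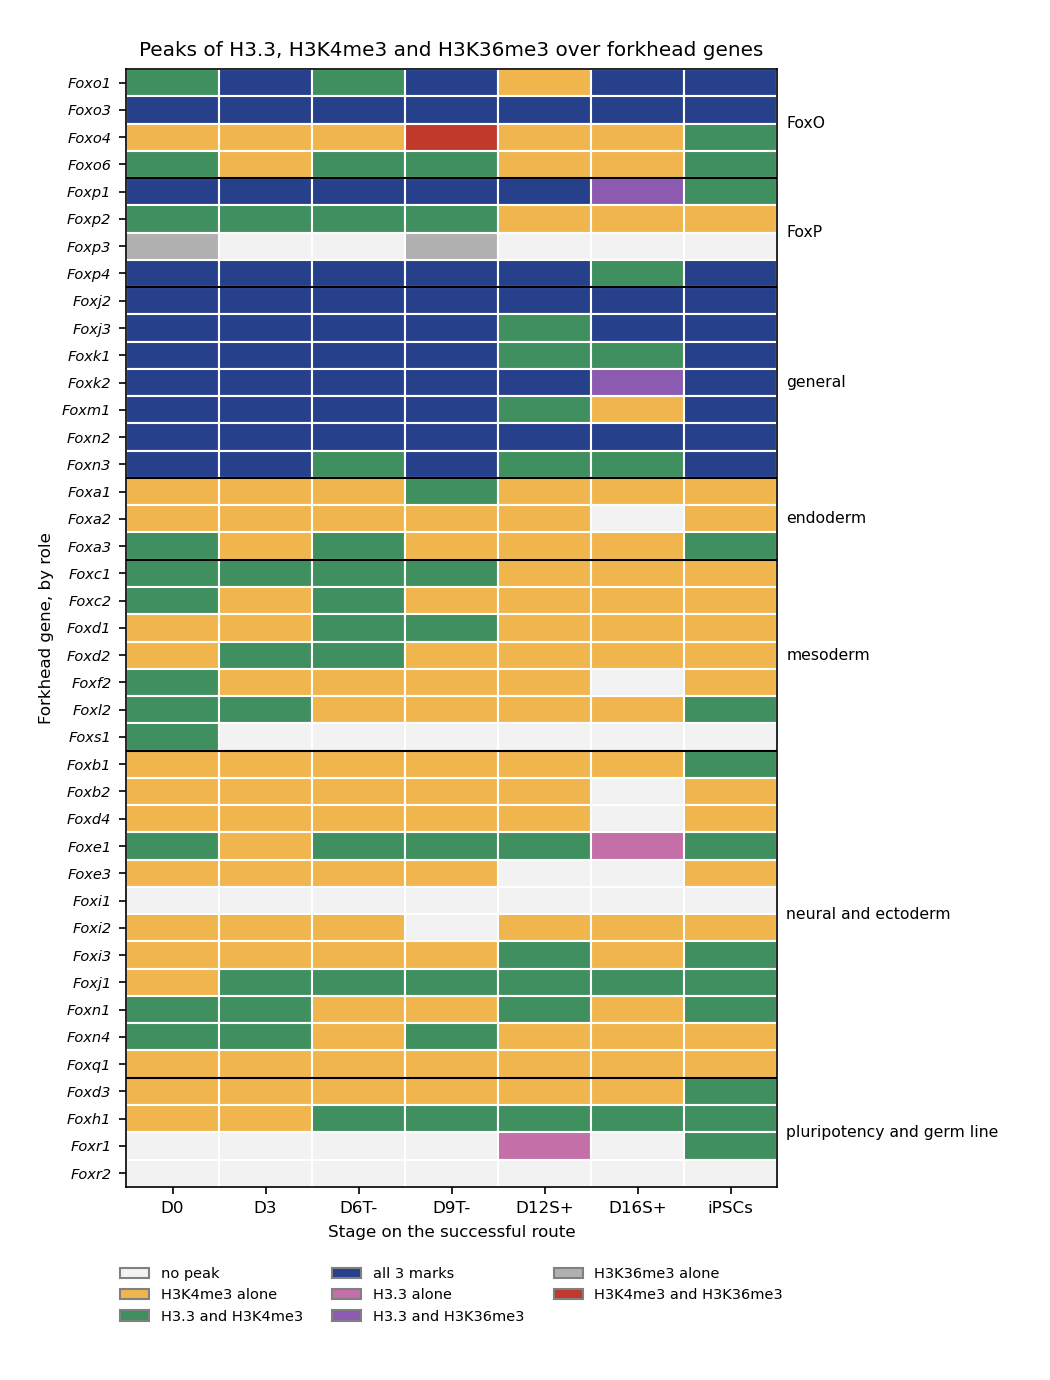
Each row is a forkhead gene (1 member is not drawn), grouped by role, and each column a stage of the successful route; the colour gives which of the 3 marks had a peak in the gene's window. Every cell with all 3 marks belongs to Foxo1, Foxo3, Foxp1, Foxp4 or a general member, the lineage regulators are mostly H3K4me3 alone or H3.3 with H3K4me3, and Foxi1 and Foxr2 have no peak in any column.

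Gene length went with this split. The 24 members shorter than 10 kb had no H3K36me3 peak in D0 (0 of 24), where 27.9% of all genes of that length had one, although 22 of the 24 had H3K4me3, against 47.4% of all such genes. The 18 longer members had H3K36me3 in 11 cases (64% of all genes of 10 kb or longer) and H3K4me3 in 16 (85.2%). H3.3 in D0 lay over 7 of the 24 short members (29.2%, against 40.2% of all genes of that length) and 16 of the 18 longer ones (88.9%, against 76.1%), and in iPSCs over 9 (37.5%, against 41.2%) and 14 (77.8%, against 74.3%), so among long genes the share of members with H3.3 was not the smaller one in either library. The 15 members with H3K4me3 alone in D0 spanned 0.977 to 6.35 kb, while the 10 with all 3 marks spanned 12.9 to 341 kb. H3K4me3 alone was on 9.55% of all genes under 10 kb, so the count of 15 stood above that of other short genes too. The family is made of short genes, with a median length of 5.54 kb against 15.4 kb over all genes.

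In D0 and iPSCs H3K4me3 covered more kb on members with a peak than on all such genes, in both length classes. Among short genes with a peak, it covered a median of 69.5% of the window of the 22 forkhead genes in D0 and 38.3% of that of all 4198 such genes. The longest peak had a median of 3.37 kb on these members and 2.69 kb on all short genes. In iPSCs the covered share was 51.3% against 32.8%. In D16S+ it was 16.2% in both sets, with 0.75 kb covered against 1.05 kb. The share of the window depends on gene length, and in kb the short members had 3.19 covered in D0 against 2.47. Members of 10 kb or longer had 4.36 kb covered in D0 against 3.06 kb, and 3.42 against 2.45 kb in iPSCs. Their longest peak in D0 had a median of 3.74 kb, against 2.7 kb.

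The few members without H3K4me3 are shown by their promoters, since base composition was not used by the rule. For every gene the 250 bases before the annotated start were read from build mm9, with the gene on the plus direction. Members held a median of 15 CG dinucleotides there, against 8 over all 22362 genes with a full sequence, and 27 of 42 (64.3%) held 10 or more, against 46.9%. Foxi1, Foxp3 and Foxr2 had no H3K4me3 peak in any of the 7 libraries (24.5% of all genes had none), and their promoters held 4, 6 and 3 CG. Foxi1 acts in inner ear and kidney, Foxp3 defines regulatory T cells, and Foxr2 is a little-studied X-linked member. Their sequences, with each CG in capitals, lie at chr11:34108090-34108339 (minus strand), chrX:7156552-7156801 (plus strand) and chrX:149553079-149553328 (plus strand):
Foxi1: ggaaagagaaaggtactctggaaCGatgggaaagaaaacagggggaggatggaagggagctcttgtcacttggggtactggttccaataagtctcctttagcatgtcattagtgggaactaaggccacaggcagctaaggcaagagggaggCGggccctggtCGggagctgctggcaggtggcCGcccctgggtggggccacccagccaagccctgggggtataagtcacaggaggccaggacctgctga
Foxp3: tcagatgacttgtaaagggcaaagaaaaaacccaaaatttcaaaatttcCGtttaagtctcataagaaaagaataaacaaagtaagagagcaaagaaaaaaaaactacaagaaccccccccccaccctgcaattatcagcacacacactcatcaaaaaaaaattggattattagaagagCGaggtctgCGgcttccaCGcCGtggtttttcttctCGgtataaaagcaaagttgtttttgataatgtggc
Foxr2: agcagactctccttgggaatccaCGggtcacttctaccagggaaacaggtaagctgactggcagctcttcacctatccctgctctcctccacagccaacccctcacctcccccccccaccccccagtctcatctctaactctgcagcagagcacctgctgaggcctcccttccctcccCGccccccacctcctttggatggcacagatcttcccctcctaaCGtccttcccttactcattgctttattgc

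Both Foxs1 and Foxr1 had H3K4me3 in a single library. Foxs1, a small gene of perivascular and mesenchymal cells, carried it in D0 alone, and Foxr1, known from germ cells and early embryos, in iPSCs alone. The 250 bases before Foxs1 (chr2:152758945-152759194, minus strand) held 6 CG, whereas those before Foxr1 (chr9:44248952-44249201, minus strand) held 15:
Foxs1: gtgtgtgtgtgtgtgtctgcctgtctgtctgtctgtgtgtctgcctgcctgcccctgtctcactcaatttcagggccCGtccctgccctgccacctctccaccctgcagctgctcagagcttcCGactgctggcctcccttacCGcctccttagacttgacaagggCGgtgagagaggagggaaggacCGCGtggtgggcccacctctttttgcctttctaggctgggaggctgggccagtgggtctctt
Foxr1: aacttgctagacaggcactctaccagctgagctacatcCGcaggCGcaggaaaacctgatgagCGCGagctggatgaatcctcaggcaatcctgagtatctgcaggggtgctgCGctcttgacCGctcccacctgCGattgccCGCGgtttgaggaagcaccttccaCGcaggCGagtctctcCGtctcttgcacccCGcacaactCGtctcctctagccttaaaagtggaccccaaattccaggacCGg
The other 37 members, with H3K4me3 in 2 or more libraries, held 3 to 41 CG with a median of 18. They included CG-poor starts, since Foxh1, Foxi2 and Foxp1 held 3 each. Of these Foxi2 had its H3K4me3 peaks at this start, whereas most of the H3K4me3 score of Foxp1 lay more than 220 kb into the gene and that of Foxh1 in D0 lay in the windows of its neighbours, so for those genes the counted bases are not the ones beside the peaks. A further 3 promoters are shown for genes picked by hand among those whose H3K4me3 differed along the route. These are Foxc2 (chr8:123639821-123640070), Foxd1 (chr13:99123950-99124199) and Foxd3 (chr4:99322740-99322989), all on the plus strand, with 8, 12 and 21 CG:
Foxc2: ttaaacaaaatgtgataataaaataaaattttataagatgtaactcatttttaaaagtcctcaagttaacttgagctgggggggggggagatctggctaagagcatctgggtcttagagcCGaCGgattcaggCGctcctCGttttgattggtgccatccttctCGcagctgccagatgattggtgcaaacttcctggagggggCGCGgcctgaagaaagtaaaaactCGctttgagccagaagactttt
Foxd1: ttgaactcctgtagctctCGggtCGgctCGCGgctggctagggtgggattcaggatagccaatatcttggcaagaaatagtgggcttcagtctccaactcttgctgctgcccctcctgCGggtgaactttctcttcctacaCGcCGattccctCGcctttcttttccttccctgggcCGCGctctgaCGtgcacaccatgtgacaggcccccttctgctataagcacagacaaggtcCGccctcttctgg
Foxd3: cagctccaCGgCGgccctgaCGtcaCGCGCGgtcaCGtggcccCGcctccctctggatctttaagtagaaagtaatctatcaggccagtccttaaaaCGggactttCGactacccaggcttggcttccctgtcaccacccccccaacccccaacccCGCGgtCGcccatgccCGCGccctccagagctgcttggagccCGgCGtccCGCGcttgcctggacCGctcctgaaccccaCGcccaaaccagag
The forkhead core motif GTAAACA, or its reverse complement TGTTTAC, was found in this window of 1 member, Foxa1 (2.38%), and of 2.74% of all genes.

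**Figure D2:**
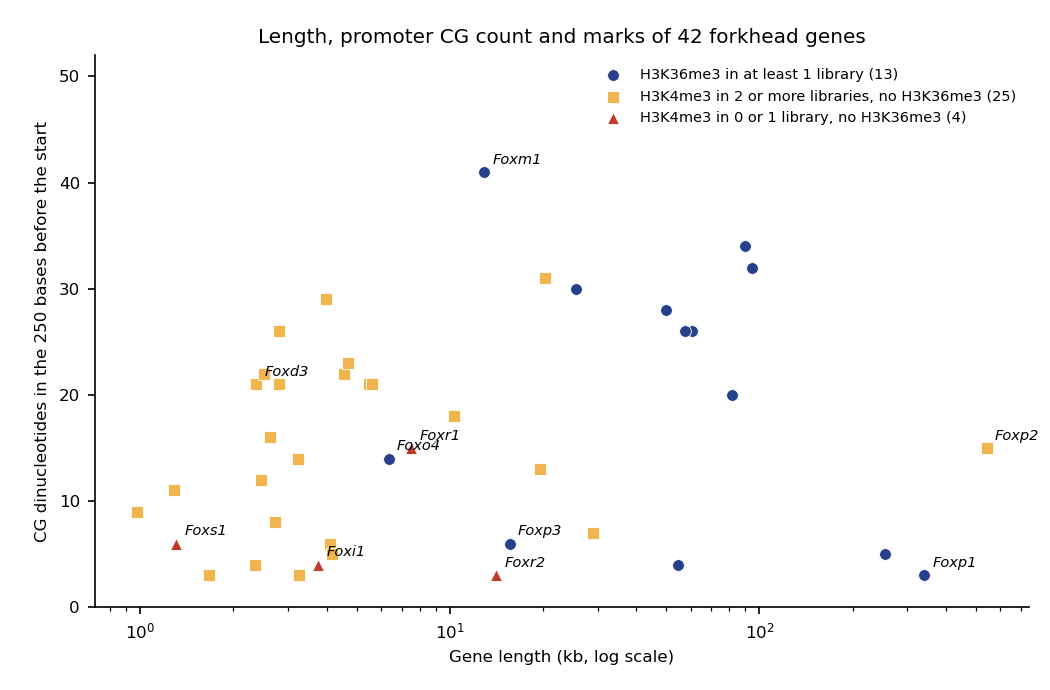
Points are the 42 members, with gene length in kb on a log scale (x) against the number of CG dinucleotides in the 250 bases before the annotated start (y), coloured by the marks found. The members with H3K36me3 in at least 1 library (13) lie between 6.35 and 341 kb, and the 4 red triangles without it and with H3K4me3 in 0 or 1 library hold 3 to 15 CG. The shortest of the 13, Foxo4, owes its call to a single 0.5 kb peak in D9T-.

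All 7 members counted as general regulators (Foxj2, Foxj3, Foxk1, Foxk2, Foxm1, Foxn2 and Foxn3) carried all 3 marks in D0 and in iPSCs. The FoxO genes were counted as a group of their own, and of them only Foxo3 had all 3 marks in D0. Over Foxj3 the 1 H3K4me3 peak in D0 and the 1 in iPSCs also lay in the window of AA415398. Over Foxm1 the 1 H3K4me3 peak in D0 also lay in the window of a neighbour. Foxj2, Foxk2, Foxn2 and Foxo3 had H3K36me3 in all 7 libraries (14.5% of all genes did), and Foxj3, Foxk1, Foxk2, Foxn2, Foxn3, Foxo3 and Foxp1 had H3.3 in all 16 libraries (7 of 42, or 16.7%, against 14.4%). Foxk1 and Foxk2 are repressors of starvation responses, and Foxn2, Foxn3 and Foxj3 are widely expressed regulators of transcription. Foxk1 ranked high for H3.3, at percentile 95.2 of genes with a peak in D0, 95.6 in iPSCs and 97.7 in ESD3, with its lowest ranks in cKit+ (85.3) and cKit- (66.0). Its summed H3.3 score was 455 at D0, 281 at D3, 329 at D6T-, 384 at D9T-, 233 at D12S+, 184 at D16S+ and 270 in iPSCs. This score is not scaled for library strength, and by rank Foxk1 stood at percentile 97.4 at D12S+ and 98.1 at D16S+.

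Foxm1, which drives the transcription of mitotic genes, had a summed H3.3 score per kb of window of 5.94 in D0 and 5.75 in iPSCs. The 5 highest members on this scale were Foxs1 (10.1), Foxk1 (7.28), Foxm1, Foxo3 (3.51) and Foxp4 (3.08) in D0, and Foxh1 (22.7), Foxm1, Foxa3 (5.18), Foxn2 (4.74) and Foxj2 (4.55) in iPSCs. The window of Foxm1 overlaps those of 2 other genes, and clear of them it had no H3.3 peak in D0 or iPSCs, a single H3.3 peak in D12S+, ESD3 and cKit+, and H3K36me3 scores of 97.3 in D0 and 33.2 in iPSCs. Foxn2 had more H3.3 in iPSCs (246) than in D0 (54.3) or ESD3 (66.3), and after scaling to the median gene with a peak in both libraries its log2 ratio of iPSCs to D0 was 2.71 (95% counting interval 2.46 to 2.97). Foxk2 lay on the other side, with 102 in D0, 12.9 in iPSCs and 48.5 in ESD3, and a scaled log2 ratio of -2.45 (-2.90 to -2.02). These intervals cover counting error only. For H3K36me3, Foxn3, Foxm1 and Foxn2 were at least 2 times higher in iPSCs after scaling (3 of 9 members with a peak in both, against 25.7% of all such genes). None of the 9 was at least 2 times lower (25.2%), the median gene being lower in iPSCs by 3.19 on the log2 scale. These ratios leave out Foxp1 (1074 in D0) and Foxp3, with a peak in D0 and none in iPSCs, and Foxo1, with the reverse.

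How large such ratios can be without conversion is shown by the 2 fibroblast libraries. Between MEF and D0, the scaled log2 ratio of H3.3 was beyond 1 in either direction for most of the 19 members with a peak in both: 2 were higher in D0 (20.7% of all such genes) and 11 lower (17.7%), with a median of -1.44 over the 19. Foxp2 was the farthest at -3.91 (-4.67 to -3.23), with 40.6 in MEF and 7.05 in D0. From D0 to iPSCs 6 of 16 members were at least 2 times higher (25.5% of all genes) and 2 at least 2 times lower (26.9%). For members, H3.3 ratios of this size were therefore also found between fibroblast libraries. D0 and MEF differed in the presence of a peak at 6 of 42 members (14.3%, against 15.6% of all genes) and iPSCs and ESD3 on 4 (9.52%, against 17.0%).

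The FoxO factors, which act downstream of insulin and PI3K signalling on stress resistance and survival, differed among themselves. Foxo3 had all 3 marks at every stage, and it ranked at percentile 98.5 for H3K4me3 in D0 and 95.9 in iPSCs. Its H3.3 score, not scaled for library strength, was 340 at D0, 135 at D3, 229 at D6T-, 140 at D9T-, 142 at D12S+, 15.5 at D16S+, 179 in iPSCs and 96.7 in ESD3. The H3.3 percentile of Foxo3 was 91.8 at D0, 92 at D12S+, 38.2 at D16S+ and 90 in iPSCs. Foxo1 carried H3K4me3 throughout (387 in D0 and 138 in iPSCs) and H3.3 in 13 of 16 libraries, but H3K36me3 only in D3 (15.4), D9T- (56.1), D16S+ (7.96) and iPSCs (7.0). The iPSC peak held 17 tags over 0.5 kb in an intron. Foxo6, found chiefly in brain, had H3.3 and H3K4me3 without H3K36me3, while Foxo4 had H3.3 in iPSCs (7.53) and D4 (19.0) alone and H3K36me3 in D9T- alone (6.70). That H3K36me3 call was a single 0.5 kb peak of 15 tags, at percentile 1.15 of genes with a peak.

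Of 24 genes of the FoxO pathway (upstream kinases and known targets), 24 had H3.3 in D0 and 23 in iPSCs, and all 24 had H3K4me3 in both. H3K36me3 lay on 23 in D0 and 16 in iPSCs, beside shares of 49.7% and 34.7% over all genes. The 4 FoxO genes themselves had H3K36me3 in 1 case in D0, Foxo3, and in 2 in iPSCs, Foxo1 and Foxo3.

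Foxp1, a repressor used in lung, heart and lymphoid development and in motor neurons, had the highest summed H3.3 score of the family in D0 and the largest scaled difference in H3.3 between D0 and iPSCs. Its summed H3.3 score was 728 at D0, 606 at D3, 726 at D6T- and 608 at D9T-, then 173 at D12S+, 41.1 at D16S+ and 26.2 in iPSCs, with 51.1 in ESD3. The values of D12S+, D16S+, iPSCs and ESD3 all lay below those of D0 to D9T-. These scores are not scaled for library strength. In D12S+, D16S+ and ESD3 6.93%, 4.88% and 7.4% of tags lay in H3.3 peaks, against 19.1% in D0. Among genes with an H3.3 peak Foxp1 stood at percentile 98.4 in D0, 98.6 at D9T- and 94.7 at D12S+. It stood at 73.0 at D16S+, 73.2 in ESD3 and 33.5 in iPSCs. In the other fractions the summed score was 283 at D6T+, 421 at D9T+, 922 at D12S- and 356 at D16S-, and in transdifferentiation 425 in MEF, 1569 at D4, 119 in cKit+ and 137 in cKit-. Every one of these values was above those of iPSCs and ESD3. There were 44 peaks in D0 and 3 in iPSCs, and the scaled log2 ratio of iPSCs to D0 was -4.26 (-4.55 to -3.98).

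The scores of the other marks on Foxp1 were also lower or absent in the late stages, where the libraries of H3K36me3 were weak. H3K36me3 had a summed score of 1074 at D0, 369 at D3, 203 at D6T-, 1635 at D9T-, 39.1 at D12S+ and 19.3 at D16S+, and no peak in iPSCs, a library in which 34.7% of all genes had one. Among genes with an H3K36me3 peak its percentile was 95.1 at D0, 90.1 at D3, 89.5 at D6T-, 97.1 at D9T-, 89.1 at D12S+ and 50.9 at D16S+, so that its rank at D12S+ was close to those at D3 and D6T-. H3K4me3 had 551 at D0, 446 at D3, 1015 at D6T-, 702 at D9T-, 162 at D12S+, no peak in D16S+ and 67.8 in iPSCs. Relative to the median gene, which was lower in the iPSC library by 1.38 on the log2 scale, this was a further difference of -1.64 (-1.84 to -1.44). The gene's 5′ end overlaps the annotated Eif4e3, but clear of that window H3.3 still stood at 718 in D0 and 15.6 in iPSCs, and H3K4me3 at 545 and 57.2.

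Within Foxp1 the marks were uneven. The annotation has starts at the 5′ end and again 104, 222, 238 and 263 kb into the gene, and the highest H3K4me3 peak lay 238 to 243 kb from the 5′ end in all 6 libraries with a peak, with a score of 295 in D0, 640 in D6T- and 51.4 in iPSCs. From 220 kb on, a cut chosen after the values were seen, lay 51.2% of the H3.3 score in D0. The share was 77% at D3, 84.6% at D6T-, 78.4% at D9T-, 71.4% at D12S+ and 73.8% in ESD3. It was 26.5% at D16S+ and 19.9% in iPSCs, from 1 peak in each. Off the route the share was 82.3% at D6T+, 72.7% at D9T+, 71.8% at D12S- and 66.3% at D16S-. In transdifferentiation it was 58.7% in MEF, 52% at D4, 43.2% in cKit+ and 47.4% in cKit-. The highest H3.3 peak was at 201 kb in D0 and in MEF and at 198 kb in D4, but at 252 to 255 kb in D3, D6T-, D9T-, D12S+, D9T+, D12S- and D16S-. In D16S+ and iPSCs, with 3 peaks each, it was near the 5′ end (0.581 and 0.189 kb), and in ESD3, D6T+, cKit+ and cKit- it was at 259, 272, 199 and 239 kb.

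**Figure D3:**
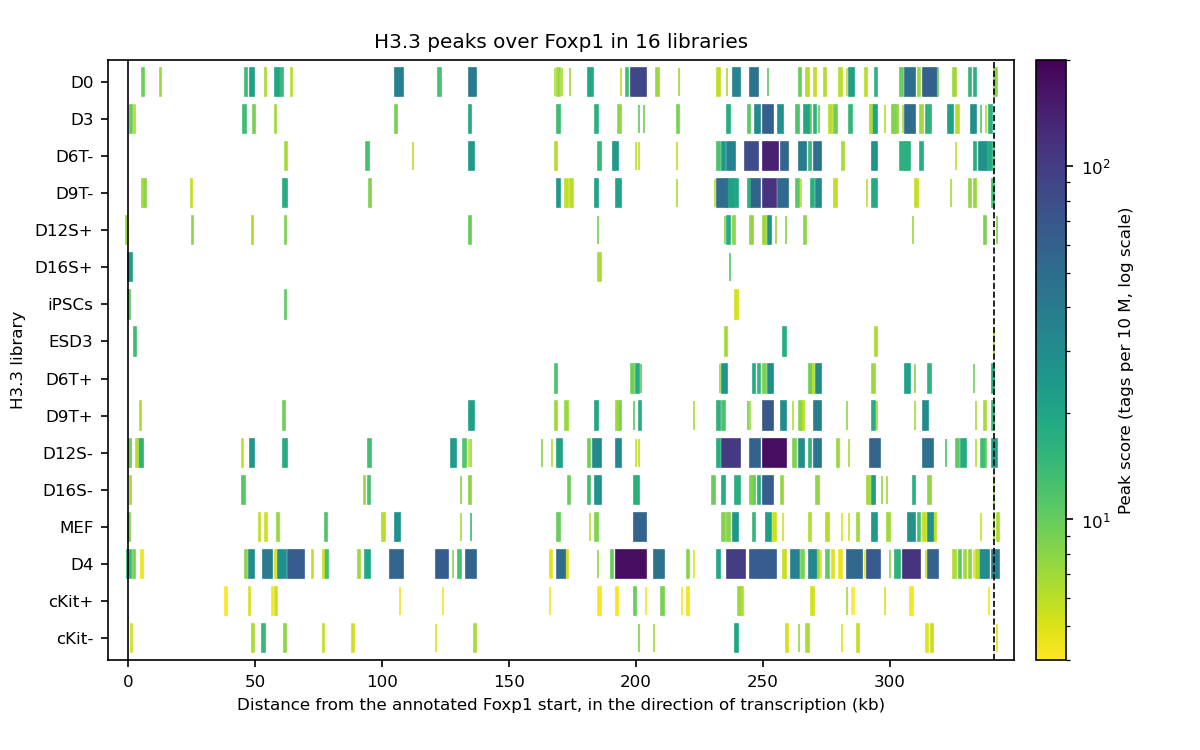
Bars are H3.3 peaks over Foxp1 in the 16 libraries (rows), placed by distance in kb from the annotated 5′ end and coloured by score on a log scale; the dashed line is the gene's 3′ end. D0, D3, D6T-, D9T-, MEF and D4 have 29 to 57 peaks and D16S+, iPSCs and ESD3 have 3, 3 and 5.

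The other FoxP genes did not share this course. Foxp4, expressed with Foxp1 and Foxp2 in lung and gut epithelium, had H3.3 at 183 in D0, 177 in iPSCs and 230 in ESD3, and H3K4me3 at percentiles 95 and 95.3 in D0 and iPSCs. Foxp2, which acts in brain and muscle, is the longest member (541 kb) and had no H3K36me3 in any library. It had H3.3 in D0 (7.05), D3 (36.2), D6T- (46.8), D9T- (15.3), all 4 fractions off the route (6.83 to 22.2), MEF (40.6) and D4 (69.6), but not in D12S+, D16S+, iPSCs, ESD3, cKit+ or cKit-. Its H3K4me3 score was 373 in D0 and 62.8 in iPSCs, a scaled log2 ratio of -1.19 (-1.40 to -0.98). Foxp3 had only H3K36me3, in D0 (6.31) and D9T- (90.7), from peaks that also lay in the window of Ppp1r3f and, in D9T-, of Ccdc22.

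Members with H3.3 in both fibroblast libraries and in neither pluripotent one included Foxc1, Foxc2, Foxp2 and Foxs1 (5 of 42, or 11.9%, against 4.12% of all genes). Foxc1 and Foxc2 pattern mesenchyme, vessels and the eye. Foxc1 had H3.3 scores of 11.5 at D0, 29.8 at D3, 15.3 at D6T- and 44.2 at D9T-, none in D12S+, D16S+, iPSCs or ESD3, 7.32 to 43.6 in the fractions off the route, 12.0 in MEF, 111 at D4 and 4.75 in cKit-. Foxc2 had 11.3 at D0, 8.60 at D6T-, 15.2 at D12S-, 15.0 in MEF and 69.7 at D4 and no peak elsewhere, and every one of these peaks lay at its start. All H3.3 and H3K4me3 peaks over Foxc2 also lay in the window of the annotated gene Gm20388, so its values cannot be told apart from those of that gene.

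Foxs1 had H3.3 in 3 libraries. Its score was 33.5 in D0, 67.3 in MEF and 332 in D4, where a single 14.5 kb peak ran across the gene, and no peak was found in the other 13 libraries. H3K4me3 was found in D0 alone, as 2 peaks with a summed score of 17.3. Per kb of window this small gene had the highest H3.3 of the family in D0, 10.1.

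H3K4me3 of Foxc1, Foxc2 and Foxf2 was lower in iPSCs but not absent. Foxc2 had H3K4me3 scores of 466 at D0, 201 at D3, 167 at D6T-, 64.3 at D9T-, 18.7 at D12S+, 13.9 at D16S+ and 41.3 in iPSCs, with percentiles of 93.6 at D0 and 27.5 in iPSCs among genes with a peak. The peak over it was 7.97 kb long in D0 and 2.65 kb in iPSCs. Its scaled log2 ratio was -2.11 (-2.37 to -1.87), that of Foxc1 -1.14 (-1.34 to -0.94) and that of Foxf2, a gene of gut and craniofacial mesenchyme, -1.10 (-1.35 to -0.85). With Foxp1 and Foxp2 these were the 5 of 37 members at least 2 times lower, against 9.36% of all genes with a peak in both.

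Foxd1, a regulator of kidney stroma and the ventral retina, had its highest H3K4me3 in the middle of the route. The score was 96.0 at D0, 139 at D3, 608 at D6T-, 518 at D9T-, 66.8 at D12S+, 18.3 at D16S+ and 42.7 in iPSCs. The peak over it measured 2.74 kb in D0, 10.7 kb in D6T- and 9.30 kb in D9T-, and 2.30 kb in iPSCs. D6T- and D9T- stood apart from the other 5 stages, with percentiles of 94.8 and 97.7 against 22.5 to 59.8. From D0 to D6T- its scaled log2 ratio was 2.43 (2.25 to 2.61), and it was among 4 members at least 2 times higher (2.26% of all genes), with Foxb1, Foxd3 and Foxi2. Foxe3 and Foxc2 were at least 2 times lower (7.30%). On the route H3.3 was found over Foxd1 in those same 2 stages (9.61 and 8.80) and at no other. Elsewhere it was 7.57 at D9T+, 67.0 at D12S-, 8.54 at D16S-, 4.93 in MEF and 23.8 at D4. The calls at D6T- and D9T- ranked low, at percentiles 8.99 and 9.55 of genes with an H3.3 peak. The one at D9T- was a single peak of 0.5 kb. At D12S+ and D16S+, without a peak, the H3.3 libraries were weak.

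**Figure D4:**
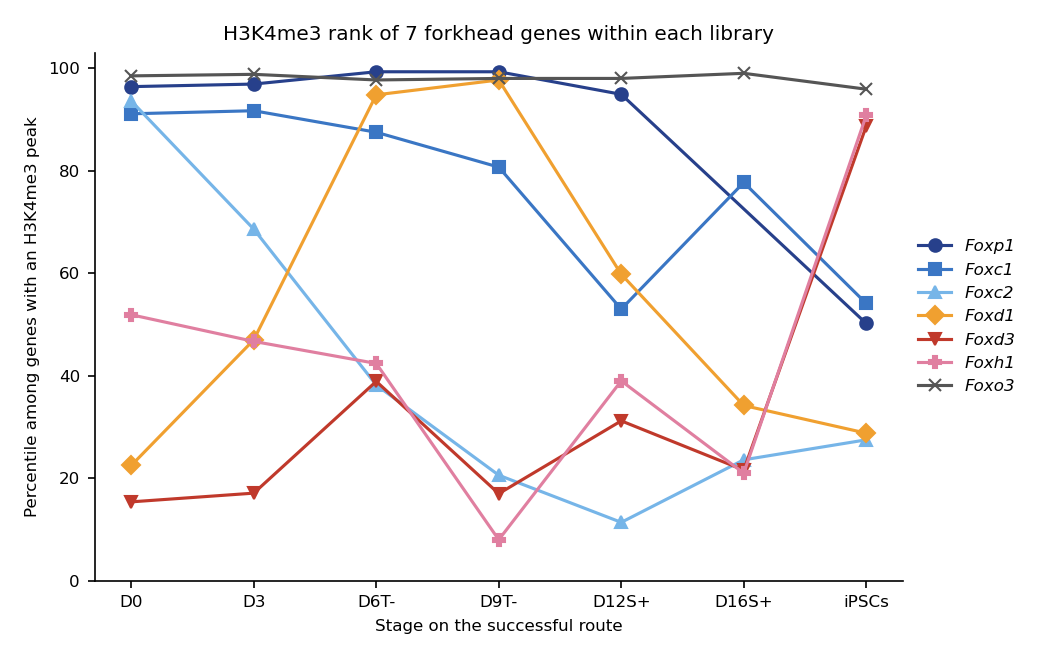
Lines give the percentile of the summed H3K4me3 score of 7 members among all genes with a peak in that library (y) over the 7 stages of the successful route (x); Foxp1 has no peak in D16S+ and its line passes over that stage. Foxd1 is highest in D6T- and D9T- (94.8 and 97.7), Foxd3 and Foxh1 stand at 88.7 and 90.8 in iPSCs, Foxc2 at 93.6 in D0 and 27.5 in iPSCs, and Foxo3 at 95.9 or above.

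Members with H3.3 in both pluripotent libraries and in neither fibroblast one were Foxb1, Foxh1, Foxi3, Foxj1 and Foxr1 (5 of 42, or 11.9%, against 3.73% of all genes). Foxh1, the cofactor through which Smad2 and Smad3 answer Nodal, had H3.3 scores of 7.75 at D6T-, 14.2 at D9T-, 10.0 at D12S+, 16.0 at D16S+, 83.1 in iPSCs and 64.1 in ESD3. It had none in D0, D3, D6T+, D9T+ or MEF, and 17.7 in D12S-, 27.1 in D16S- and 54.0 in D4. Per kb of window it was the densest member in both pluripotent libraries, with 22.7 in iPSCs and 17.5 in ESD3. Its window is shared with Kifc2 and Ppp1r16a, and every H3.3 peak over it apart from the one in D12S+ also lay in one of those windows.

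H3K4me3 over Foxh1 had a different layout at the ends of the route. In D0 the 2 peaks lay at the Ppp1r16a side, 2.05 kb before the start of Foxh1 (162), and on the Kifc2 side, 2.75 kb after it (25.3), with only 0.503 kb of the window covered. In iPSCs a single peak of 6.65 kb (176) covered all 3.67 kb of the window. The percentile was 51.9 in D0, 8.01 in D9T- and 90.8 in iPSCs. Of 16 genes of the Nodal pathway, 12 had H3.3 in D0 and 14 in iPSCs and in ESD3, and 14 and 15 had H3K4me3 in D0 and iPSCs.

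Foxj1, the master regulator of motile cilia, had most H3.3 away from both end states. Its score was 6.77 at D3, 34.0 at D6T-, 85.9 at D9T-, 62.2 at D12S+, 37.1 at D16S+, 6.68 in iPSCs and 23.6 in ESD3, with none in D0, MEF or D6T+. The fractions off the route had 11.6 in D9T+, 91.0 in D12S- and 76.9 in D16S-, and D4 had 14. In D6T-, D9T-, D12S+, D12S- and D16S- the highest of these peaks was centred 5.79 to 6.38 kb from the start, beyond the 3′ end of this 4.70 kb gene, so that much of the score lay outside it. The window also overlaps that of Rnf157, in which only a D4 peak of H3.3 lay. Foxb1 and Foxi3, regulators of the diencephalon and of placodes and teeth, rested on short peaks, with 5.95 and 5.71 in iPSCs and 13.2 and 6.71 in ESD3; Foxb1 also had 22.7 in D4 and Foxi3 7.11 in D12S+. Foxr1 had 7.33 in D12S+, 28.1 in iPSCs, 19.2 in ESD3 and 25.2 in D4, and in iPSCs its H3.3 peak overlapped the H3K4me3 peak (25.1) at the start.

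Foxd3, which maintains pluripotency and the neural crest, had the largest scaled difference in H3K4me3 of the family between D0 and iPSCs. The score was 66.2 at D0, 59.8 at D3, 170 at D6T-, 53.7 at D9T-, 39.1 at D12S+, 13.0 at D16S+ and 162 in iPSCs, so that only D6T- and iPSCs were above D0. The percentile was 15.4 in D0, 38.9 in D6T- and 88.7 in iPSCs, and the scaled log2 ratio of iPSCs to D0 was 2.67 (2.44 to 2.92). In D6T- and iPSCs the peak over the gene was 8.14 and 5.96 kb long, against 3.18 kb in D0. With Foxh1, Foxi2, Foxi3 and Foxn1 it was among the 5 of 37 members at least 2 times higher, against 9.59% of all genes.

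The endoderm regulators Foxa1, Foxa2 and Foxa3, pioneer factors of liver, lung and pancreas, all had H3K4me3 in D0 (215, 96.2 and 233) and in iPSCs (58.1, 46.3 and 107). None had H3K36me3 in any library. Foxa2 had no H3.3 in any of the 16 libraries, a state it shared with Foxd4, Foxe3, Foxi1, Foxi2, Foxp3 and Foxr2 (7 of 42, or 16.7%, against 19.9% of all genes). Foxa1 had H3.3 in D9T-, D12S- and D4 (5.87, 6.77 and 35.1). Foxa3 had H3.3 scores of 6.12 at D0, 15.5 at D6T-, 63.5 in iPSCs and 9.25 in ESD3, between 6.98 and 13.7 in the fractions off the route, and 266 at D4. Its window overlaps that of Sympk, and clear of that its H3.3 was 51.1 in iPSCs and 217 at D4, of which 206 came from a 14.7 kb peak centred outside the window of Foxa3. Counting only clear peaks centred in the window, it was 39.2 in iPSCs and 10.5 at D4, and clear of Sympk its H3K4me3 was only 29.8 in D0 and 20.9 in iPSCs. Of 8 endoderm marker genes, 6 had H3K4me3 in D0 and 5 in iPSCs, and 2 and 3 had H3.3.

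Of the 13 members assigned to neural tissue and ectoderm, 12 had H3K4me3 in D0 and in iPSCs, and 4 and 5 had H3.3. None had H3K36me3 in any library. Foxq1 had H3K4me3 in all 7 libraries (227 in D0 and 66.0 in iPSCs) and H3.3 only in MEF (6.53) and D4 (41.7), from peaks that also lay in the window of A530084C06Rik. Of 7 neural marker genes all 7 had H3K4me3 in D0 and in iPSCs, and 2 and 4 had H3.3.

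**Figure D5:**
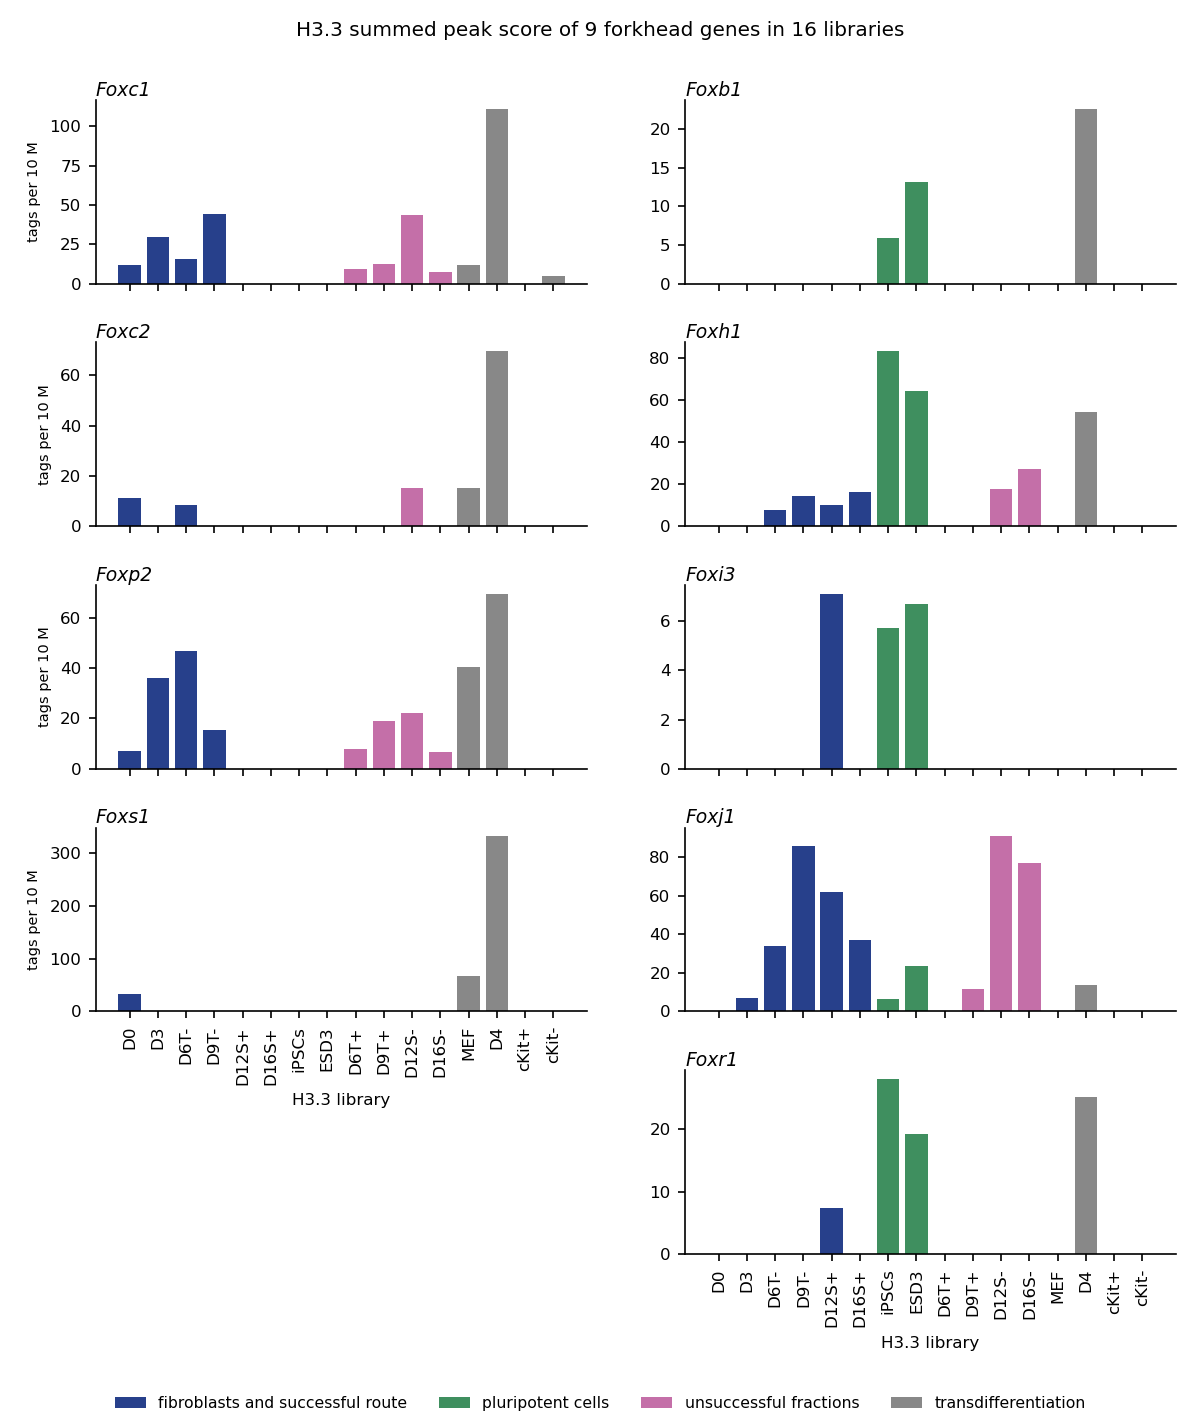
Bars give the summed H3.3 score (tags per 10 M tags) in the 16 libraries of 4 of the 5 members with H3.3 in D0 and MEF but not in iPSCs or ESD3 (left) and of the 5 with the opposite pattern (right), with a scale of its own in each panel. Foxs1 reaches 332 in D4 and Foxh1 83.1 in iPSCs, while Foxj1 is highest in D9T- (85.9) and D12S- (91.0).

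The place of the H3.3 peaks went with the length of the gene. Of 159 H3.3 peaks over members in D0, 127 (79.9%) were intronic and 22 lay at a start site. In iPSCs 92 of 131 (70.2%) were intronic. Long genes with many peaks weigh most in these counts, and Foxp1 alone held 44 of the peaks in D0 and 3 in iPSCs. The intronic share over all genes was not computed, so these counts cannot be read as a result about forkhead genes. In members under 10 kb, 7 of 8 H3.3 peaks in D0 and 9 of 10 in iPSCs overlapped an H3K4me3 peak of the same stage, against 64.7% and 66% of the peaks over all genes of that length. The counts were 5 of 5 at D3 (56.8% over all short genes), 9 of 9 at D6T- (65.3%) and 7 of 8 at D9T- (63.2%). They were only 3 of 6 at D12S+ (53.4%) and 0 of 3 at D16S+ (37.1%). In the longer members 45 of 151 (29.8%) did in D0 and 36 of 121 (29.8%) in iPSCs, against 28.8% and 33.6% over all long genes. Of the 23 members with H3.3 in D0 5 (among them Foxa3, Foxf2, Foxl2 and Foxp2), and of the 23 in iPSCs 4 (Foxb1, Foxd3, Foxe1 and Foxi3), owed the call to a single peak of 0.5 kb, the shortest in the lists.

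Late in reprogramming the fractions off the route had H3.3 over more members than those on it. H3.3 was found over 24 members in D12S- (63.5% of all genes) and 16 in D12S+ (50.2%), and over 22 in D16S- (56.7%) and 13 in D16S+ (43.4%), so the share of all genes differed in the same direction. In all, 10 members had it in D12S- and not in D12S+ (23.8%, against 15.2% of all genes), among them Foxc1, Foxc2, Foxd1, Foxp2 and Foxo1, and 2, Foxi3 and Foxr1, had it in D12S+ alone (4.76%, against 1.93%). On day 16, 10 members had it in D16S- alone (17.6% of all genes) and Foxe1 in D16S+ alone (4.29%). On days 6 and 9 the direction was the other way, with 21 members in D6T- (60.6%) and 17 in D6T+ (53.1%), and 20 in D9T- (58.3%) and 18 in D9T+ (55.0%). Foxc2, Foxd1, Foxd2, Foxe1, Foxh1 and Foxj1 had it in D6T- alone (10.6% of all genes), Foxn1 and Foxn4 in D6T+ alone (3.02%), Foxa1, Foxe1 and Foxh1 in D9T- alone (7.38%) and Foxa3 in D9T+ alone (4.01%). Among the 12 reprogramming libraries D12S- held the highest H3.3 score of 12 members (28.6%, against 19.9% of all genes) and iPSCs that of 8 (19%, against 12.1%). D12S- was also the one of these libraries with most tags in H3.3 peaks (22%).

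In transdifferentiation H3.3 was found over 21 members in MEF (53.3% of all genes), 33 in D4 (72.1%), 8 in cKit+ (33.2%) and 10 in cKit- (31.8%). The 12 members with H3.3 in D4 and not in MEF (28.6%, against 19.7%) were Foxa1, Foxa3, Foxb1, Foxb2, Foxd2, Foxe1, Foxh1, Foxj1, Foxn4, Foxo1, Foxo4 and Foxr1. H3.3 in D4 and in neither cKit fraction was found at 22 of the 42 (52.4%, against 31.3% of all genes), or 66.7% of the 33 with H3.3 in D4, against 43.4% of all genes with H3.3 in D4. These shares were not matched for gene length. Of all genes under 10 kb, 50.7% had H3.3 in D4, 15.1% in cKit+ and 14.1% in cKit-. Of longer genes 86.2%, 45.2% and 43.5% had it. The 24 members under 10 kb had it in 17, 0 and 1 cases, and the 18 longer ones in 16, 8 and 9. D4 was also the library with most tags in H3.3 peaks (37.2%), and 25 of the 42 members had their highest score there (59.5%, against 47.9% of all genes). The 8 members marked in cKit+ cells were all longer than 10 kb, namely Foxj3 (26.4), Foxk1 (32.3), Foxk2 (9.97), Foxm1 (7.85), Foxn2 (26.7), Foxn3 (14.6), Foxo3 (60.1) and Foxp1 (119).

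Other families of regulators are set beside the forkhead genes, of which 38 had H3K4me3 and 11 H3K36me3 in D0. There, H3K4me3 lay on 19 of 19 Sox, 16 of 17 Klf, 39 of 40 Hox and 12 of 13 Tbx genes, and H3K36me3 on 4, 12, 8 and 6 of them. H3.3 lay on 13 of 19 Sox, 12 of 17 Klf, 25 of 40 Hox and 6 of 13 Tbx genes in D0, and on 10, 14, 14 and 8 in iPSCs. No test of these differences between families was made.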

How the data were processed

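Chromatin immunoprecipitation of H3.3, H3K4me3 and H3K36me3 was followed by sequencing, and 30 peak lists were analysed, each from the 1 library of its group. Per the study's methods, the authors aligned reads to mm9 with STAR, removed multi-locus reads, and called peaks per library against input with HOMER in its histone style; tool versions are not given in the sources used here. The score deposited by the authors is the signal of a peak, in tags per 10 M tags with the input not subtracted. The deposited fold ratio of a peak over input was at least 2 for H3.3 in these lists, and the deposited p-value is the caller's own; neither tests one condition against another.

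Here, peaks were assigned to genes of GENCODE vM1 by an overlap of at least 1 base with the window (1 kb on each side of the gene), and scores were summed. Tags were recovered from score and library total. The 95% counting intervals of ratios are exact binomial intervals on the split of tags between the libraries compared. They were shifted by library size and by the median, and they cover counting error only. Ratios between libraries were scaled to the median gene with a peak in both, and a scaled difference of 2 times was counted. Counts were set beside the share of all 22367 genes. With 1 library per group no test between conditions was possible and no p-value is given. Genes were named by presence patterns, H3.3 per kb, differences in H3K4me3 or H3K36me3 presence, and role; members and lists were chosen with earlier results of these data known. Values for other genes, and the cut within Foxp1, were chosen after their values were seen. Of the marker lists, 11 of 12 hematopoietic and 7 of 8 neural genes were found. Python 3.11.15, numpy 2.4.6, pandas 2.3.3 and scipy 1.17.1 were used. The assignment was tested on simulated peaks, where 200 of 200 planted genes were called among 22367. The values of 1 member are not reported here by name.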

Additional observations from a re-analysis of the deposited data

How the results depend on the processing

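For 23 counts, 7 alternative settings were tried, and those that moved by more than 1.5 times, or with the set of members, are given. The cause was not tested unless the setting itself fixes it. Shares of all genes under these settings were not computed, so the counts show how the calls depend on the setting and not a trait of members. With peaks counted only within 1 kb of start sites, H3.3 was on 8 members in D16S+, 12 in ESD3, 1 in cKit+ and 5 in cKit-, H3K36me3 on 4 in D0, 2 in iPSCs and 0 gained, and all 3 marks on 4 in D0 and 1 in iPSCs. When each library was cut to the same number of its best peaks, H3.3 was on 13 in D0, 14 in D16S- and 14 in iPSCs, with 4 gained and 3 lost, H3K36me3 on 6 in D0 with 3 gained and 1 lost, H3K4me3 alone on 23 in D0, H3K4me3 lost on 0, and all 3 marks on 5 in D0. Without the flanks H3K4me3 was gained on 2, and with peak midpoints on 3. With scores at or above the library median, H3.3 was on 14 in D16S-, 6 in cKit- and 15 in iPSCs with 4 gained, H3K36me3 was gained on 0 and H3K4me3 lost on 0. With a stricter fold (4 for H3.3 and 8 for the others), H3.3 was on 14 in D4, 5 in MEF, 0 in cKit+, 1 in cKit- and 14 in iPSCs with 2 gained, H3K36me3 on 5 in D0 and 3 in iPSCs with 3 gained and 5 lost, H3K4me3 on 12 in iPSCs with 0 gained and 23 lost, H3K4me3 alone on 4 in iPSCs, and all 3 marks on 5 in D0 and 0 in iPSCs. Among the 27 members without a neighbouring gene in the window, a smaller set by construction, H3.3 was on 13 in D0, 5 in D16S+, 11 in D16S-, 19 in D4, 11 in ESD3, 11 in MEF, 2 in cKit+, 5 in cKit- and 12 in iPSCs with 4 gained, H3K36me3 on 3 in D0 and 4 in iPSCs with 0 lost, H3K4me3 on 24 in D0 and 24 in iPSCs, and all 3 marks on 3 in D0 and 4 in iPSCs.

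Weak libraries (D12S+, D16S+ and iPSCs H3K36me3, D16S+ H3K4me3, cKit+ and cKit- H3.3) limit the reading of an absent peak. The same limit holds for H3.3 in D12S+ and D16S+, where 6.93% and 4.88% of tags lay in peaks. No paired analysis was possible because each group had 1 library, and no replicate was there to leave out.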
